A study of Homo sapiens with 8 samples.

Results

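The genes of the 26S proteasome were followed in 4 lines derived from the triple-negative breast cancer cell line MDA-MB-231. The genes were taken by symbol: all protein-coding genes whose symbol starts with PSMA, PSMB, PSMC, PSMD, PSME or PSMF, other than PSMB8 and PSMB9, with an FPKM (fragments scaled to transcript length and to the mapped fragments of the library) that reached 1 in 2 or more of the 8 libraries. That gave 41 of the 44 protein-coding genes under these 6 prefixes, out of 10465 genes that passed the same minimum. PSMA8, the testis form of an alpha subunit, and PSMB11, the thymus form of a beta subunit, were listed at 0 in every library, and PSMD5, an assembly chaperone, lay between 0.0899 and 0.569. The prefix also takes genes that encode no subunit: PSMC3IP (HOP2), which acts with the meiotic recombinase DMC1, and PSME3IP1, whose product binds the nuclear activator PSME3.

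RNA was sequenced from 2 libraries of each line. All lines carry a lentiviral construct and were established under puromycin, which the later cultures did not contain. The control cells hold a scrambled shRNA, the KD cells an shRNA against DAXX, the WT OE cells a wild-type DAXX cDNA and the DSM OE cells a DAXX cDNA whose SUMO-interacting motifs are both disabled. The cells with a cDNA were compared with the scrambled shRNA line, since no line with an empty cDNA vector is among the samples, and the labels do not say whether a line is a pool or a clone. They do say that cultures were separate, as duplicates in the design text and as triplicates in the treatment notes, and 2 per line were analysed.

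The 26S proteasome degrades proteins tagged with ubiquitin. Its 20S core is a barrel of stacked rings, with outer rings of alpha subunits that gate the entrance and inner rings of beta subunits that hold the proteolytic sites. A 19S cap recognises the ubiquitin chain, removes it and unfolds the substrate: its base holds a ring of ATPases (the PSMC genes) and large scaffold subunits, and its lid holds the deubiquitinase PSMD14 and its scaffold. Other caps, PA28 (PSME1 with PSME2, or PSME3 alone) and PA200 (PSME4), open the core without ATP. The genes are known to be transcribed in concert, and the factor NRF1 (NFE2L1) raises them together through antioxidant response elements when proteasome activity falls. Interferon exchanges catalytic beta subunits for PSMB8, PSMB9 and PSMB10 and raises PSME1 and PSME2.

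The start regions of 36 of the 41 genes were matched by symbol in RefSeq (GRCh38.p14), each from 250 bases before to 50 bases after the start; PSMA7, PSMB1, PSMB6, PSMB7 and PSMD4 were not matched. Stretches of 200 bases before the start are shown for the neighbouring PA28 genes, one of which is a called gene below, and for PSMB3, one of 2 genes (with PSMD3) whose window holds both TGACNNNGC, the core of the antioxidant response element, and CCAAT, the box bound by NF-Y. Capitals mark TGACNNNGC, CCAAT and GAAANNGAA, the last with the spacing of sites bound by interferon regulatory factors and searched for only after the sequences had been seen.
PSME1 (chr14:24135994-24136193, plus strand): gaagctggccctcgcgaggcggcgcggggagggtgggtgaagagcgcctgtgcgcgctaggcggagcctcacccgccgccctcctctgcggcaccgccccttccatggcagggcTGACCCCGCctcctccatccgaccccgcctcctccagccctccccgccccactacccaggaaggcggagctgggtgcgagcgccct
PSME2 (chr14:24146611-24146810, minus strand): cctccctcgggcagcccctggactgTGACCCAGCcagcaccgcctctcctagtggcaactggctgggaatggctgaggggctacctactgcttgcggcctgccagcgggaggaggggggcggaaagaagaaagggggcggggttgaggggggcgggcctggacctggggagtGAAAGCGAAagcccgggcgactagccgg
PSMB3 (chr17:38752541-38752740, plus strand): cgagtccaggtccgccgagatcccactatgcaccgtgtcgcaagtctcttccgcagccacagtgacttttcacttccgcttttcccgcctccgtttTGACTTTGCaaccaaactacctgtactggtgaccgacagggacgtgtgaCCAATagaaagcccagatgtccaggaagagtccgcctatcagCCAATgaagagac
The PSME1 and PSME2 stretches each hold 1 TGACNNNGC, which begins at position -86 and -175 from the start, and PSME2 has GAAAGCGAA at -28. Read on both strands, TGACNNNGC was found in 9 of the 36 windows (25%), against 13.6% of all 27305 promoters and 15.4% of the 8353 promoters of tested genes. CCAAT was in 18 (50%, against 35.7% and 37.8%), and CCGGAAG, an ETS core, in 12 (33.3%, against 10.7% and 20.9%). TATAAA was in 4 (11.1%, against 12% and 5.1%) and TGANTCA, the AP-1 site, in 1 (2.78%, against 7.76% and 4.32%). GAAANNGAA was in 6, namely PSMA4, PSMB4, PSMB10, PSMC2, PSME1 and PSME2 (16.7%, against 8.29% and 6.39%). The 6 include PSME1 and PSME2, which are among the genes shown, so the late choice of this motif may have raised its share. TGACNNNGC and TGANTCA can share letters, but no matches of different motifs overlapped in these windows. A match is a run of letters, not a measured site.

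DAXX itself followed the labels. Its FPKM was 25.3 and 37.4 in control cells, 8.60 and 7.30 with KD, 158 and 283 with WT OE and 64.6 and 93.8 with DSM OE. Sums of FPKM per library ran from 162318 to 166886. Reads were not counted here, so depth is unknown; low values put each library at 0.898 to 1.15 times the depth of control replicate 1. Of the 5 mesenchymal markers of the parent line (VIM, CD44, AXL, FN1, CAV1) all were expressed, summing to 249 to 1566, with VIM at 39.1 in KD replicate 1 and 682 to 1328 in the other libraries. The luminal markers (ESR1 and PGR at 0 throughout, CDH1 at or near 0) summed to 2.35 to 4.45 and the fibroblast markers to 4.52 to 6.32. Of the luminal markers, EPCAM was at 0.873 to 2.84, GATA3 at 0.232 to 1.40 and FOXA1 at 0.0699 to 0.688. Leukocyte markers were CD68 alone, with CD3E at 0 and PTPRC at most 0.0203.

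The summed level of the genes differed little among the lines. Their summed FPKM was 1250 and 1254 in control cells, 1379 and 1243 with KD, 1243 and 1239 with WT OE and 1208 and 1199 with DSM OE. That is 0.734% to 0.829% of all FPKM in a library. The KD libraries lay on both sides of control, and both DSM OE libraries lay below the other 6. The lower KD sum, of replicate 2, includes PSMB5 at 1.29 FPKM (82.9 in replicate 1) and PSMD4 at 9.46 (51.8). Its place below control rests on such values. Low values of single genes also enter the sums of other libraries. In bulk RNA, more cells of a kind and more RNA per cell cannot be told apart. By structure, the beta ring took the largest sum (392 to 500 FPKM over 8 genes), then the base (294 to 357 over 9), the lid (171 to 193 over 8), the alpha ring (138 to 192 over 7), and the activators with the inhibitor (87.8 to 107 over 5). The 7 alpha genes, whose products assemble in equal numbers, differed in mean FPKM by 13.5-fold, the 8 beta genes by 6.34-fold, the base genes by 24.6-fold and the lid genes by 9.86-fold. Among the beta genes the lowest mean was that of PSMB10 (13.5 FPKM), an interferon-induced subunit. The other beta genes ran from 40.9 (PSMB2) to 85.4 (PSMB4). FPKM is set per length of transcript, so these are comparisons per length.

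**Figure D1:**
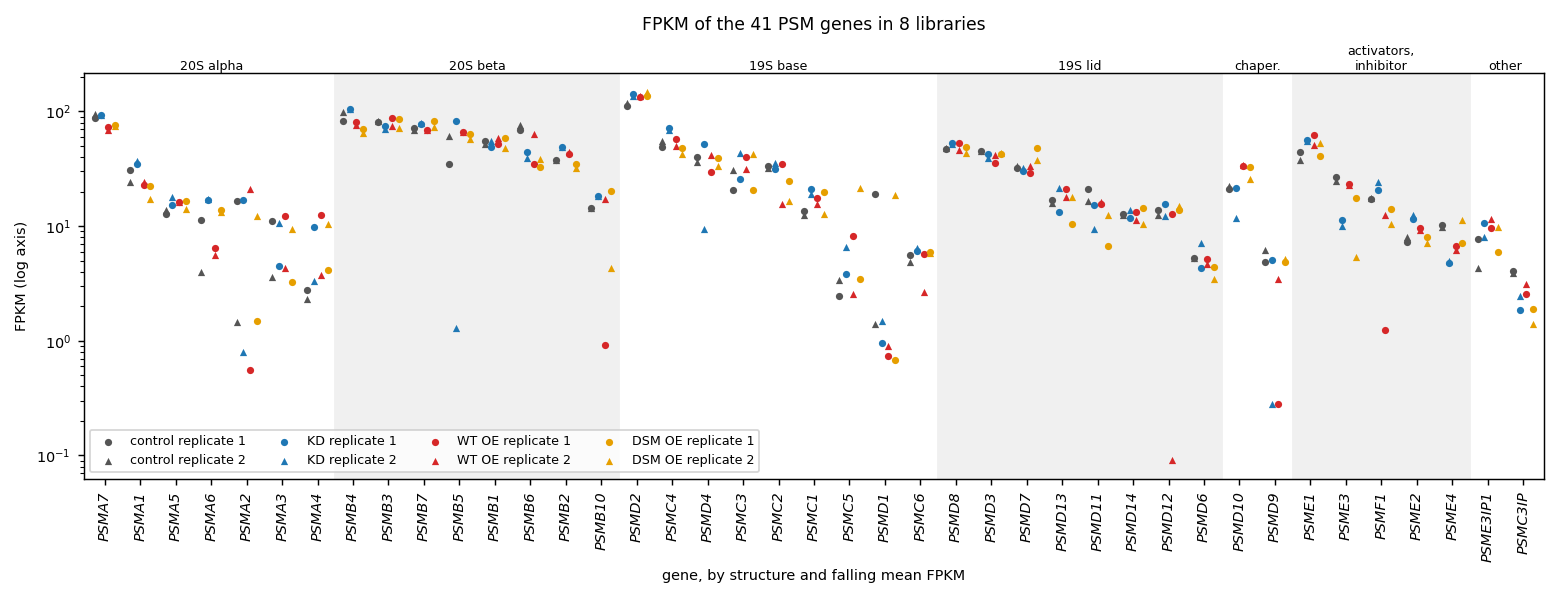
FPKM (log axis) of the 41 genes in each library, grouped by structure and ordered by mean FPKM within a group; colour gives the line, circles replicate 1 and triangles replicate 2. The spread of the 8 points differs among genes, from 1.20-fold for PSMB7 to 170-fold for PSMD12. PSMB5, PSMD12 and PSMF1 have a single library far below the rest (PSMD12 down to 0.0910). PSMA2, PSMB10, PSMD9 and PSMD1 have 2 or more low libraries.

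**Figure D2:**
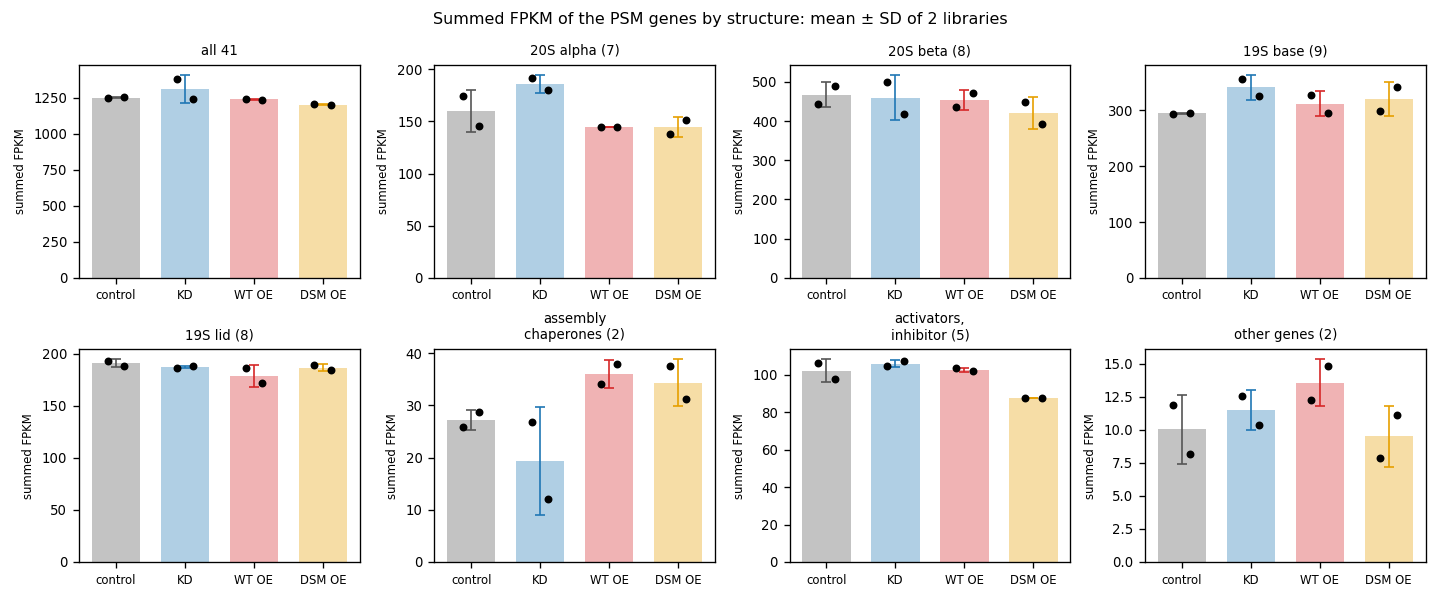
Summed FPKM of the genes of each structure (number of genes in parentheses) in the 4 lines; bars are means of 2 libraries, error bars the SD and points the libraries. The total lies between 1199 and 1379 in all 8 libraries, and the activators with the inhibitor lie at 87.8 in both DSM OE libraries against 98.0 to 107 in the other 6. The equal DSM OE sums hide opposite gaps: PSME1 was at 40.9 and 53.4 there, and PSME3 at 17.5 and 5.38. No gene of that group was called in DSM OE.

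With DAXX knocked down, 1 of the 41 genes passed the test (limma on log2(FPKM + 1), two-sided, Benjamini-Hochberg over all 10465 genes, threshold 0.05), where 7.2% of all tested genes did. It was PSME2, the beta subunit of PA28, which opens the core and is induced by interferon. PSME2 was at 7.28 and 8.05 FPKM in control cells, 11.6 and 12.5 with KD, 9.64 and 9.21 with WT OE and 8.06 and 7.17 with DSM OE. The KD libraries lay above the other 6, control and DSM OE overlapped, and WT OE lay between. On the log2(FPKM + 1) scale the KD difference was 0.59 (standard error 0.11, limma adjusted p = 0.034). The call was lost when any 1 library was left out (0.53 to 0.65), with median scaling (limma adjusted p = 0.0517), with quantile normalization (0.0512), in a fit of KD and control alone (0.0873) and with the replicate number as a block (0.0795). Its partner PSME1 had 44.6 and 37.6 FPKM in control cells, 56.3 and 55.6 with KD, 62.6 and 51.4 with WT OE and 40.9 and 53.4 with DSM OE. Both KD libraries exceeded both control libraries, and the difference of 0.44 (standard error 0.17, limma adjusted p = 0.199) did not pass.

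The other caps had lower values in KD than in control, and neither passed. PSME4 (PA200, which acts on acetylated histones and in DNA repair) was at 10.2 and 9.90 FPKM in control cells, 4.75 and 5.00 with KD, 6.72 and 6.21 with WT OE and 7.19 and 11.4 with DSM OE. KD held the lowest values of the 8, with a log2 difference of -0.91 from control (standard error 0.20, limma adjusted p = 0.0519). PSME4 passed under 6 alternatives, among them the stricter filter, median scaling and a fit of KD and control alone. PSME3 (PA28 gamma, the nuclear cap) was at 27.0 and 24.7 FPKM in control cells, 11.3 and 10.0 with KD, 23.2 and 22.9 with WT OE and 17.5 and 5.38 with DSM OE. The KD difference was -1.20 (standard error 0.46, limma adjusted p = 0.192). It passed without either DSM OE library and in the fit of KD and control alone, where the spread of DSM OE does not enter. PSMF1 (PI31, an inhibitor of the core in the test tube) had 17.4 and 17.7 FPKM in control cells, 20.7 and 24.3 with KD, 1.25 and 12.5 with WT OE and 14.2 and 10.5 with DSM OE. Both cDNA lines lay below control.

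Over all 41 genes the median log2 difference of KD from control was 0.06, against 0.03 over all genes tested, with 26 values above 0 and 15 below. At an unadjusted p under 0.05 there were 7 higher and 4 lower (26.8%, against 23.3% of all genes). The 3 largest estimates were PSMB5 at -1.75 (standard error 1.54), PSMD1 at -1.65 (1.37) and PSMD9 at -1.22 (0.85), and none of them passed.

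In WT OE, 0 of the 41 genes passed the test, where 5.11% of all tested genes did; 6 had an unadjusted p under 0.05 (14.6%, against 22.6% of all genes). The median difference from control was -0.07, against 0.02 over all genes, with 17 values above 0 and 24 below. The smallest adjusted p was that of PSMA7, the alpha subunit with the highest FPKM of its ring, at 88.6 and 96.0 in control cells, 93.5 and 92.8 with KD, 73.3 and 69.6 with WT OE and 75.9 and 74.6 with DSM OE. Both cDNA lines lay below control and KD with no overlap, and the WT OE difference of -0.36 (standard error 0.083, limma adjusted p = 0.0681) did not pass. PSMD12 called without WT OE replicate 1 and PSMF1 called without WT OE replicate 2 are each a call on the lone low library that was left.

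In DSM OE, 1 of the 41 genes passed, where 11.0% of all tested genes did, and it encodes no proteasome subunit. PSMC3IP, the gene of lowest mean FPKM among the 41, was at 4.08 and 3.88 in control cells, 1.87 and 2.44 with KD, 2.58 and 3.15 with WT OE and 1.88 and 1.39 with DSM OE. Control was above the other 6 libraries, and the DSM OE difference was -0.92 (standard error 0.16, limma adjusted p = 0.023). That of KD was -0.66 (standard error 0.16, limma adjusted p = 0.0671). The DSM OE call was lost without either control library and without either DSM OE library (-1.06 to -0.79 over all 8 such fits). No other of the 41 genes was called in DSM OE. The median difference of all 41 was -0.07, against 0.02 over all genes, with 15 values above 0 and 26 below, and 9 had an unadjusted p under 0.05 (22%, against 28.3%).

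The largest DSM OE estimates were 1.37 for PSMC5 (standard error 0.83), -1.30 for PSME3 (0.46) and 1.11 for PSMA4 (0.69). PSMC5, an ATPase of the base, was at 2.44 and 3.36 FPKM in control cells, 3.80 and 6.57 with KD, 8.12 and 2.55 with WT OE and 3.43 and 21.5 with DSM OE. Only DSM OE replicate 2 stood far above the rest. PSMA4, the alpha subunit of lowest mean FPKM, had 2.77 and 2.33 in control cells, 9.82 and 3.30 with KD, 12.6 and 3.76 with WT OE and 4.14 and 10.4 with DSM OE. Both control libraries were the lowest of the 8, while the duplicates of each other line lay over 2-fold apart.

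Wild-type and mutant DAXX were compared to ask what the SUMO-interacting motifs change. DAXX RNA was at 158 and 283 FPKM in WT OE against 64.6 and 93.8 in DSM OE, with no overlap, and its log2 difference of 1.43 (standard error 0.34, limma adjusted p = 0.122) missed the threshold. The motifs and the amount of DAXX RNA cannot be told apart in this comparison. By immunoblot, the paper reports similar levels of wild-type and mutant protein in xenograft tumours grown from such lines. Protein was not measured here. Between WT OE and DSM OE, 0 of the 41 genes passed, where 1.6% of all tested genes did, and 6 had an unadjusted p under 0.05 (14.6%, against 16.6%). The median difference was 0.08, against -0.01 over all genes. PSMB2, a beta subunit without a proteolytic site, came closest, at 0.38 (standard error 0.082, limma adjusted p = 0.0996).

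Between WT OE and KD, 1 of 41 passed, where 11.7% of all tested genes did. PSMA7, whose FPKM is given above, was lower in WT OE by a log2 difference of -0.38 (standard error 0.083, limma adjusted p = 0.0407). The call was lost when any 1 library was left out (-0.42 to -0.34). The median difference was -0.05, against 0.00132 over all genes, and 8 genes had an unadjusted p under 0.05 (19.5%, against 28.2%). PSMD10 (gankyrin, a chaperone of base assembly and an oncoprotein in liver) was at 21.0 and 22.5 FPKM in control cells, 21.7 and 11.8 with KD, 33.8 and 34.5 with WT OE and 32.6 and 26.0 with DSM OE. Both cDNA lines lay above control and KD, and WT OE exceeded KD by 1.04 (standard error 0.27, limma adjusted p = 0.0635). The comparisons with control share its 2 libraries, and those with WT OE share its 2, so their values are not independent.

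**Figure D3:**
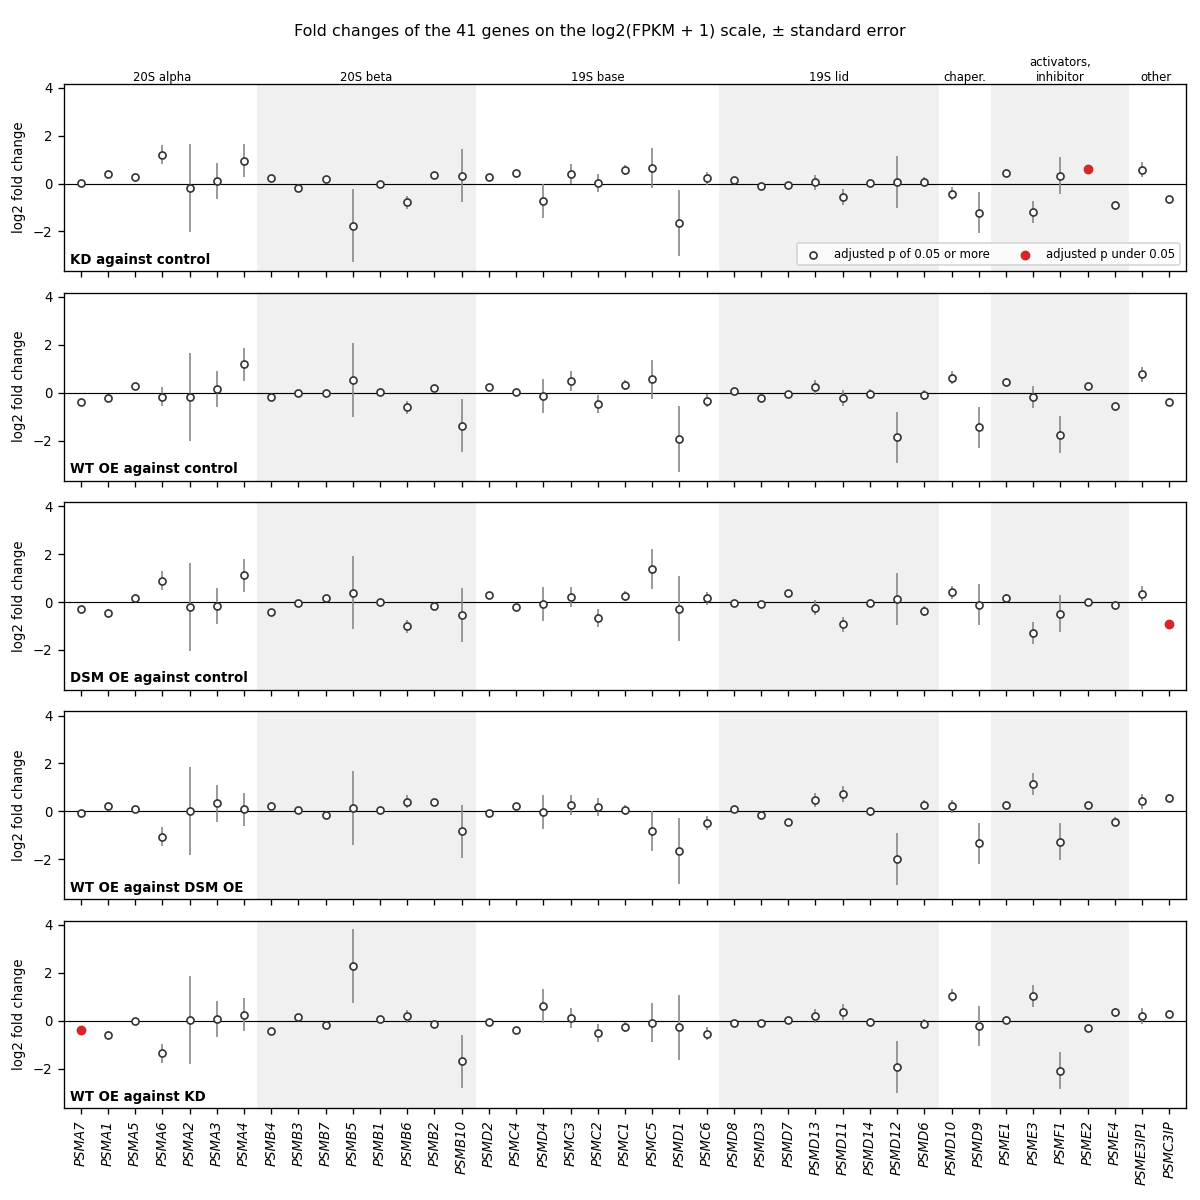
Log2 fold change (points) with its standard error (bars) for the 41 genes in the 5 comparisons, on the log2(FPKM + 1) scale and grouped by structure; filled points passed an adjusted p of 0.05. The filled points are PSME2 in KD (0.59), PSMC3IP in DSM OE (-0.92) and PSMA7 in WT OE against KD (-0.38), and the longest bars belong to PSMA2, PSMB5, PSMD1, PSMB10 and PSMD12.

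A gene that did not pass need not have held steady, so the intervals were read as well. For 9 of the 41 genes the 95% interval of the difference lay within 1.5-fold in all 5 comparisons (22%, against 11.2% of all genes tested): PSMA7, PSMB1, PSMB2, PSMB3, PSMB7, PSMD2, PSMD3, PSMD8 and PSMD14. These include the trypsin-like site (PSMB7), the deubiquitinase of the lid (PSMD14) and a scaffold of the base (PSMD2). For 25 genes it lay within 1.5-fold in no comparison. Within single comparisons the share of the 41 genes was not above that of all genes tested. It was 26.8% against 33.9% in KD, 34.1% against 34.4% in WT OE and 29.3% against 29.7% in DSM OE. Between WT OE and DSM OE it was 34.1% against 39.5%, and between WT OE and KD 29.3% against 30.9%. An interval within 1.5-fold can still exclude 0. PSMA7, one of the 9, was called in WT OE against KD, with an interval of -0.58 to -0.17 on the log2 scale. PSMB7 was at 71.1 and 68.3 FPKM in control cells, 77.8 and 79.0 with KD, 69.1 and 68.9 with WT OE and 82.3 and 73.8 with DSM OE. Its difference from control was 0.17 in KD (95% interval -0.05 to 0.38), -0.01 in WT OE (-0.23 to 0.20) and 0.16 in DSM OE (-0.06 to 0.37).

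PSMD2, which binds ubiquitin shuttles and had the highest mean of the 41 genes, was at 111 and 118 FPKM in control cells, 143 and 135 with KD, 134 and 135 with WT OE and 136 and 149 with DSM OE. All 6 libraries of the altered lines lay above both control libraries, by 0.28, 0.23 and 0.31 on the log2 scale, and none of these passed (adjusted p = 0.129, 0.198 and 0.0778 from limma). In the lid, PSMD8 had the highest mean, at 46.8 and 47.7 in control cells, 53.0 and 52.5 with KD, 53.5 and 46.2 with WT OE and 48.9 and 43.0 with DSM OE. PSMD6, the lid gene of lowest mean, was at 5.29 and 5.31 in control cells, 4.35 and 7.07 with KD, 5.22 and 4.64 with WT OE and 4.41 and 3.43 with DSM OE. For PSMD8, KD lay above control and the cDNA lines overlapped it. For PSMD6, both cDNA lines lay below control and KD lay on both sides of it.

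Of the other proteolytic sites, PSMB6 (the caspase-like site) was at 69.1 and 75.8 FPKM in control cells, 44.0 and 39.2 with KD, 34.9 and 64.2 with WT OE and 32.8 and 38.4 with DSM OE. Control lay above all other libraries. The difference was -0.79 in KD (adjusted p = 0.164), -0.60 in WT OE (adjusted p = 0.272) and -1.01 in DSM OE (adjusted p = 0.0744, all from limma). The KD and DSM OE differences passed when either WT OE library was left out, the line whose duplicates were farthest apart. PSMB4, the beta subunit of highest mean and one without a proteolytic site, was at 82.3 and 98.0 in control cells, 104 and 106 with KD, 81.6 and 75.9 with WT OE and 70.5 and 64.7 with DSM OE. KD was highest and DSM OE lowest, with no overlap between those lines, and no comparison passed.

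The remaining catalytic gene could not be placed. PSMB5, the chymotrypsin-like site and the target of bortezomib, was at 34.5 and 60.6 FPKM in control cells, 82.9 and 1.29 with KD, 66.2 and 66.8 with WT OE and 63.3 and 58.0 with DSM OE. KD held both the highest and the lowest value of the 8. The 95% interval of the KD difference ran from -5.54 to 2.03 on the log2 scale, and without KD replicate 2 the estimate turned to 0.84 (that of PSMD4 turned to 0.42). Left with KD replicate 2 alone, the fit called PSMB5 lower in KD, as it did PSMD4, a ubiquitin receptor at 51.8 and 9.46 FPKM. With replicate 1 alone it called neither. PSMB10, the interferon-induced counterpart of PSMB7, was at 14.3 and 14.3 in control cells, 18.2 and 18.4 with KD, 0.925 and 17.2 with WT OE and 20.1 and 4.30 with DSM OE. Both KD libraries exceeded both control libraries, and each cDNA line had 1 library well below the others.

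Such gaps were common among these genes. In 16 of the 41 (39%) the duplicates of at least 1 line lay 2-fold or more apart, against 26.1% of all tested genes; with a mean FPKM of at least 5 this was 39.5% of 38 against 17.1% of 5368. Gaps of 5-fold or more occurred in 9 genes (22%, against 9.45%) and of 10-fold or more in 6 (14.6%, against 6.07%). By line, 4 genes were 2-fold apart in control, 6 genes in KD, 10 genes in WT OE and 8 genes in DSM OE. The genes with a gap fell unevenly over the structures. The lid had 7 of 8 genes without one and the beta ring 6 of 8, while the alpha ring had 3 of 7 and the base 3 of 9.

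PSMA2, an alpha subunit, had a gap of over 5-fold in every line. It was at 16.5 and 1.45 FPKM in control cells, 17.0 and 0.795 with KD, 0.551 and 21.0 with WT OE and 1.48 and 12.3 with DSM OE. One library of every line was high and the other low, so its line means differ by little (8.95, 8.92, 10.8 and 6.87). PSMD1, the other scaffold of the base, was at 18.9 and 1.41 in control cells, 0.964 and 1.48 with KD, 0.730 and 0.895 with WT OE and 0.678 and 18.7 with DSM OE. It was high in 2 libraries of different lines and low in the other 6. PSMD12, of the lid, was at 13.8 and 12.5 in control cells, 15.5 and 12.2 with KD, 12.8 and 0.0910 with WT OE and 13.7 and 15.1 with DSM OE, so that a single library stood out. PSMD9, a chaperone of base assembly, was at 4.89 and 6.14 in control cells, 5.06 and 0.283 with KD, 0.280 and 3.45 with WT OE and 4.86 and 5.15 with DSM OE. Its low values were in 1 KD and 1 WT OE library. PSMC6, the base gene of lowest mean, was at 5.63 and 4.86, 6.06 and 6.38, 5.67 and 2.65, and 5.96 and 5.86 in the same order. Its WT OE duplicates lay 2.14-fold apart. PSME3IP1 was at 7.77 and 4.32, 10.7 and 7.96, 9.71 and 11.7, and 6.01 and 9.75.

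The low value fell in different libraries for different genes. Of the 14 gaps of 5-fold or more, the lower library was WT OE replicate 1 in 4, KD replicate 2 in 4, DSM OE replicate 1 in 3, control replicate 2 in 2 and WT OE replicate 2 in 1. The values are 1 per gene, and the sources used here do not say how several transcripts were combined. Among tested genes with a mean FPKM of at least 5, gaps of 2-fold or more occurred in 15.1% of those with 1 curated RefSeq transcript, 17.3% of those with 2 to 4 and 20.8% of those with 5 or more. For the proteasome genes these were 3 of 14, 10 of 21 and 2 of 3. The part of the transcript number in the gaps was not tested.

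**Figure D4:**
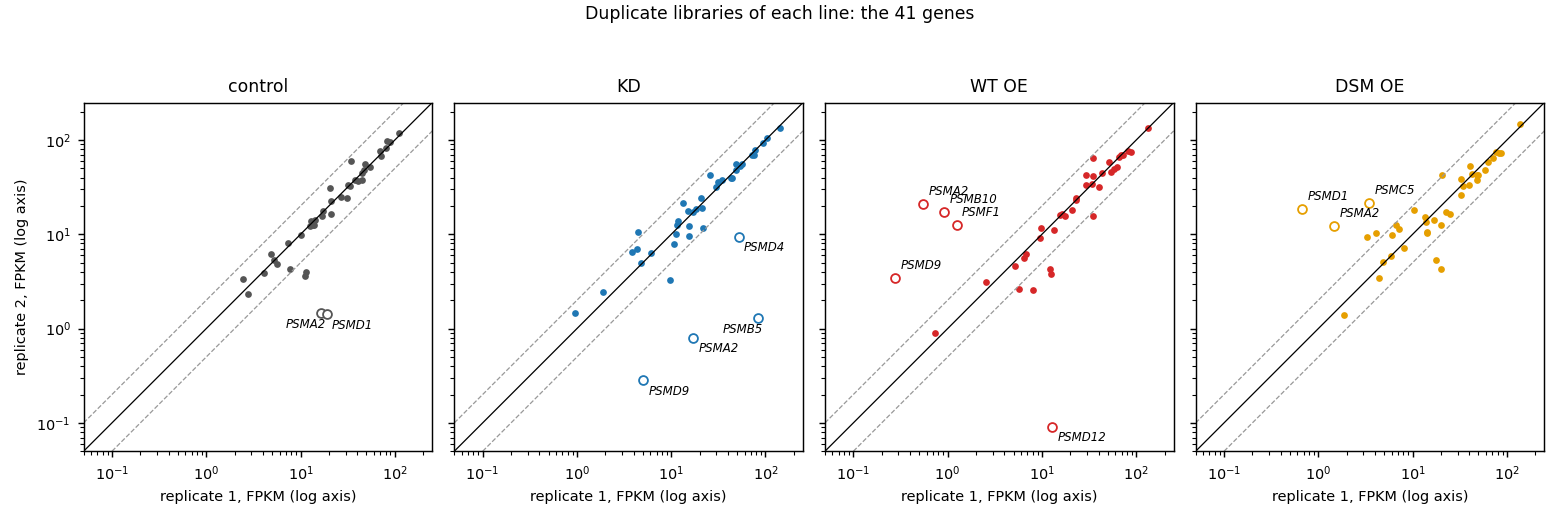
FPKM of the 41 genes in replicate 2 against replicate 1 of each line (both axes log); the solid line marks equal values, dashed lines a 2-fold difference, and open named points the 14 gaps of 5-fold or more. Most genes lie near the solid line in every line, and PSMA2 is far from it in all 4.

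One gene value may hold reads of another. PSMC1P1, a processed pseudogene of the base ATPase PSMC1, was listed at 45.2 to 64.9 FPKM, above PSMC1 itself at 12.5 to 21.2. The other non-coding genes under these prefixes reached at most 1.23. The level of PSMC1 is therefore uncertain.

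PSMB8 and PSMB9, the subunits that the symbol rule leaves out, were lower than control in altered lines. PSMB8, the interferon-induced counterpart of PSMB5, was at 26.4 and 25.8 FPKM in control cells, 17.4 and 17.4 with KD, 19.2 and 18.8 with WT OE and 26.0 and 24.2 with DSM OE. Relative to control on the log2 scale it fell by 0.56 with KD (standard error 0.085, limma adjusted p = 0.0203) and by 0.44 with WT OE (standard error 0.085, limma adjusted p = 0.0474). PSMB9, the counterpart of PSMB6, was at 7.73 and 7.14 in control cells, 4.94 and 4.69 with KD, 3.63 and 3.90 with WT OE and 4.96 and 3.94 with DSM OE. It fell by 0.82 in WT OE (standard error 0.13, limma adjusted p = 0.0289) and by 0.64 in DSM OE (standard error 0.13, limma adjusted p = 0.0347). TAP1, which carries the peptides into the endoplasmic reticulum, was at 10.4 and 12.8 in control cells, 5.84 and 5.32 with KD, 9.19 and 8.63 with WT OE and 11.2 and 10.3 with DSM OE. It fell by 0.93 in KD (standard error 0.13, limma adjusted p = 0.0154) and was higher in WT OE than in KD by 0.59 (standard error 0.13, limma adjusted p = 0.0398). Of the 6 genes of this list (with TAP2, TAPBP and ERAP1), 2 passed as lower in KD, 2 passed in WT OE and 1 passed in DSM OE, where 7.2%, 5.11% and 11.0% of all tested genes were called. Against control, none of the 6 passed in the higher direction. The list's medians were -0.41, -0.39 and -0.42, against 0.03, 0.02 and 0.02 over all genes. These calls were among those lost with libraries left out: PSMB8 in WT OE without any 1 of the 8, PSMB8 in KD without a control or KD library, PSMB9 in WT OE without 6 of the 8 and in DSM OE without 7, and TAP1 in KD without 3 (-1.07 to -0.79). The TAP1 difference between WT OE and KD was lost without 6 of the 8 (0.53 to 0.65), and with no filter, the compared lines alone and the replicate block. In KD, PSME2 was called higher, and PSMB8 and TAP1 lower. Without a call, both KD libraries lay above both control libraries for PSME1 and PSMB10 and below them for PSMB9. Interferon is known to raise these genes, and its part in the KD values was not tested.

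Among 7 assembly factors under other symbols, POMP, the chaperone that matures the beta ring, was at 75.3 and 61.9 FPKM in control cells, 69.6 and 71.8 with KD, 63.6 and 70.0 with WT OE and 48.8 and 41.5 with DSM OE. DSM OE lay below the other 6 libraries, by -0.59 from control (standard error 0.14, limma adjusted p = 0.0475), a call lost without any 1 library. The other 6 factors passed in no comparison. Of the subunits under other symbols, the ubiquitin receptor ADRM1 ranged from 105 to 172 FPKM and SEM1 from 2.00 to 4.81, with no call. The 6 ubiquitin and E1 genes had none either, with UBB at 359 to 528. Nor did the 11 tested shuttles and proteasome-bound enzymes, with RAD23B at 5.73 to 51.3.

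Of 11 genes for factors that act on proteasome genes and their partners, BACH1 was higher in both cDNA lines. It is a repressor at antioxidant response elements, and was at 5.94 and 5.87 FPKM in control cells, 6.55 and 6.39 with KD, 10.2 and 10.8 with WT OE and 13.7 and 15.6 with DSM OE. The lines did not overlap. BACH1 rose by 1.17 in DSM OE (standard error 0.10, limma adjusted p = 0.00421), a call kept in all 8 fits with a library left out, and by 0.74 in WT OE (standard error 0.10, limma adjusted p = 0.0219), a call lost in 6 of them. It was also higher in WT OE than in KD by 0.62 (limma adjusted p = 0.0184), a call lost in 4 of the 8 and with the compared lines alone. KEAP1, which holds NRF2 in check, was at 31.3 and 28.8 in control cells, 22.7 and 35.3 with KD, 16.4 and 19.1 with WT OE and 9.11 and 15.4 with DSM OE. It fell by 1.27 in DSM OE (standard error 0.29, limma adjusted p = 0.0478), a call lost without any 1 library. The other 9, with NFE2L1 at 6.19 to 24.5 and NFE2L2 at 5.41 to 11.2, passed in no comparison.

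Among 10 genes of the segregase p97 and its cofactors, UBXN1 and UBXN7, adaptors that bring ubiquitinated proteins to p97, were higher in DSM OE. UBXN1 was at 11.9 and 8.81 FPKM in control cells, 13.4 and 12.3 with KD, 16.4 and 11.3 with WT OE and 19.1 and 25.1 with DSM OE, a difference of 1.02 (standard error 0.23, limma adjusted p = 0.0466). UBXN7 was at 6.29 and 3.71, 4.70 and 4.87, 8.45 and 8.51, and 10.6 and 11.1 in the same order, a difference of 1.01 (standard error 0.20, limma adjusted p = 0.035). Both calls were lost without most single libraries (6 and 7 of 8). NSFL1C (p47) was lower in WT OE than in KD by -0.94 (standard error 0.16, limma adjusted p = 0.0213), at 7.43 and 5.38 against 13.8 and 12.4, and at 10.4 and 11.5 in control and 5.98 and 6.83 in DSM OE. This call was lost in 3 of the 8 fits with a library left out and with the compared lines alone.

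The COP9 signalosome has the same architecture as the lid and removes NEDD8 from cullins. COPS4, one of its 10 genes listed here, was at 6.10 and 5.01 FPKM in control cells, 4.91 and 3.45 with KD, 0.198 and 0.572 with WT OE and 7.77 and 7.24 with DSM OE. WT OE lay far below the other 6 libraries, with a log2 difference of -2.25 from control (standard error 0.20, limma adjusted p = 0.0071), -1.90 from KD (standard error 0.20, limma adjusted p = 0.00567) and -2.63 from DSM OE (standard error 0.20, limma adjusted p = 0.00849). All 3 calls held when any 1 library was left out. They were lost with the compared lines alone. The other 9 genes passed in no comparison.

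**Figure D5:**
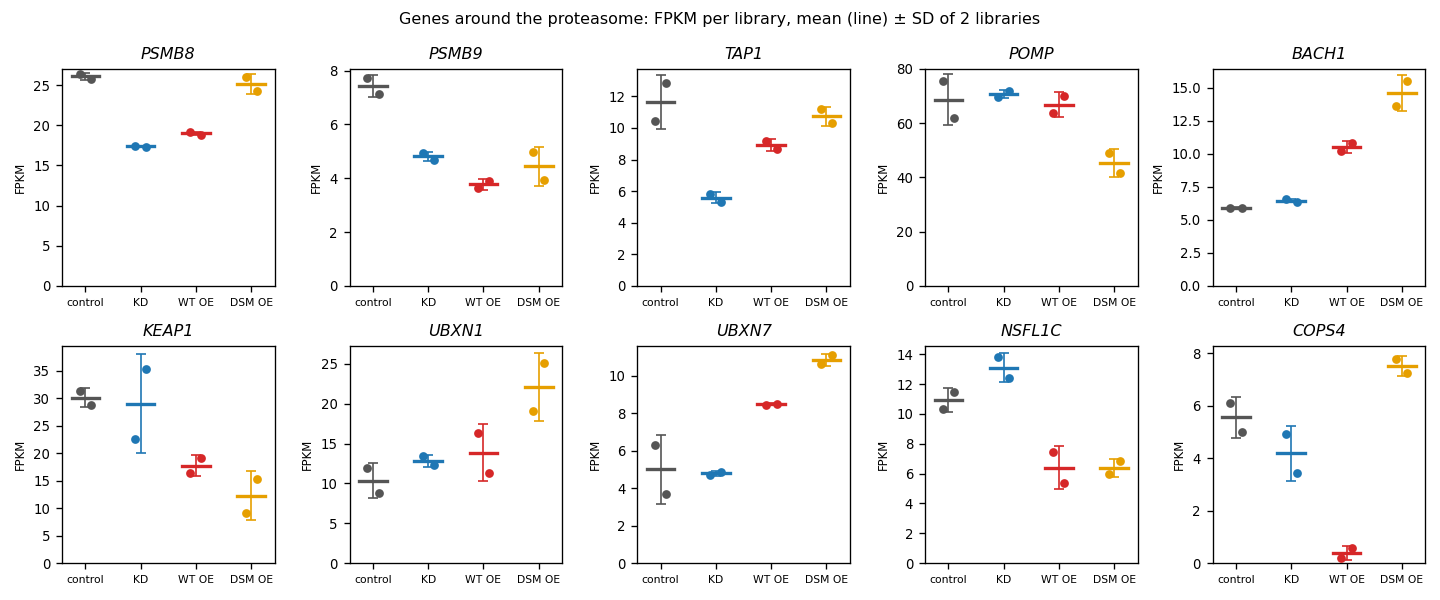
FPKM of 10 genes around the proteasome that passed in at least 1 comparison; points are libraries, horizontal lines the mean of 2 and error bars the SD. PSMB8 lies at 17.4 to 19.2 in KD and WT OE against 24.2 to 26.4 in control and DSM OE, and COPS4 is at 0.198 and 0.572 in WT OE against 3.45 to 7.77 in the other lines.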

How the data were processed

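RNA-seq was analysed for 8 libraries, 2 per line, grouped by the genotype label. The authors deposited 1 FPKM value per gene and library, and these were taken without change. The submitters' processing notes name HISAT2, StringTie and limma, and the builds GRCh38 and hg19; the table has no coordinates. Genes (36991 Ensembl identifiers, 35836 matched to a symbol) whose FPKM reached 1 in 2 or more of the 8 libraries were tested as log2(FPKM + 1) with limma 3.58.1 in R 4.3.3 (4 group means, eBayes with a trend, 4 residual degrees of freedom), Benjamini-Hochberg within each of 5 comparisons, threshold 0.05. No other scaling was applied. Fold changes on this scale understate the change of low genes. Errors of fold changes are standard errors of the fit, and those of means are the SD of 2 libraries. An exact permutation test of 2 against 2 libraries cannot reach 0.05, and none was used. The fit was tested on simulated data.

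The members and the lists were chosen with earlier results of these data known. Values in every library are given for members called, for the catalytic and PA28 genes, for the highest and lowest mean of each structure, for the 3 largest changes per comparison and for the 5 largest gaps between duplicates (24 genes); PSMB2 and PSMD4 were added after their values were seen. Genes outside the members come from fixed lists, those called, or the 2 of highest mean in a list with no call. NFE2L1, NFE2L2 and TAPBP were added likewise. A few listed genes are not reported here. PSMC3IP was assigned to a structure group after the table was read. The alternatives were a pseudocount of 0.1, no filter, a minimum mean FPKM of 5, quantile normalization, median scaling, no trend, a robust prior, the compared lines alone, a replicate block and each library left out. Low values were used to estimate each library's depth relative to control replicate 1.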

Additional observations from a re-analysis of the deposited data

Results flagged for a closer look

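COPS4, a subunit of the COP9 signalosome, drew attention because its change from control differed between the DAXX cDNA lines: it was lower in WT OE than in DSM OE by a log2 difference of -2.63 (standard error 0.20, adjusted p = 0.00849 from limma), the difference itself being what was tested. Both WT OE libraries (0.198 and 0.572 FPKM) lay below both DSM OE libraries (7.77 and 7.24). No sample was tested for standing apart, since each line has 2 libraries. DAXX RNA was at 158 and 283 FPKM in WT OE against 64.6 and 93.8 in DSM OE (log2 difference 1.43, limma adjusted p = 0.122), so the mutation and the amount of DAXX RNA cannot be told apart. The paper reports similar protein levels of both forms in xenograft tumours, and protein was not measured here. The cause of the COPS4 difference was not tested.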

How the results depend on the processing

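The number of proteasome genes called rested on few genes near the threshold. In KD (1 gene) it was 2 with no filter or with the compared lines alone, 3 with the stricter filter and 0 with the replicate block, and 0 to 2 with a library left out; PSME2 itself was lost with median scaling, quantile normalization and the compared lines alone, where PSME4 or PSME3 was called instead. In WT OE (0 genes) it was 0 to 1 with a library left out. In DSM OE (1 gene) it was 0 with the stricter filter, which drops PSMC3IP, with the compared lines alone and with the replicate block, and 0 to 2 with a library left out. Between WT OE and DSM OE (0 genes) it was 0 to 1 with a library left out. Between WT OE and KD (1 gene) it was 0 with median scaling, without the trend and with the replicate block, 2 with the compared lines alone, and 0 to 3 with a library left out. Leaving out a library leaves a lone one, assumed to vary like the other lines. The median difference of the 41 genes moved by less than the spread between duplicates (0.145) in every alternative run, within 0.02 to 0.18 in KD, -0.10 to -0.01 in WT OE, -0.11 to -0.00340 in DSM OE, 0.06 to 0.13 in WT OE against DSM OE and -0.13 to -0.04 in WT OE against KD. Each main median was itself smaller in size than 0.145, so a median could vanish and still stay within this limit. No called difference and no median changed sign. Of the 205 estimates over 41 genes and 5 comparisons, 80 changed sign under at least 1 alternative; PSMB5 in KD went from -1.75 to 0.84 without KD replicate 2. Same-numbered libraries did not deviate together over all genes (correlation -0.061 to 0.043). Over the 41 genes the correlation ran from -0.62 (control with DSM OE) to 0.039 (control with KD). The replicate numbers were not taken to pair the libraries, and a call lost under the block is not read as a weaker effect. With 2 libraries per line and unknown depth, differences such as that of PSMB5 could not be resolved.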
